A study of Homo sapiens with 15 samples.

Results

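The human mitochondrial genome carries 37 genes on a small circle of DNA, and the members here are the genes of the count table whose symbol starts with MT-, 37 of the 60675 genes listed. They comprise 13 protein genes, 2 ribosomal RNA genes and 22 tRNA genes. Transcribed from the heavy strand are 28 of them: 12 protein genes, both rRNA genes and 14 tRNA genes. The other 9 are transcribed from the light strand: MT-ND6, a subunit of respiratory complex I, and the 8 tRNA genes MT-TQ, MT-TA, MT-TN, MT-TC, MT-TY, MT-TS1, MT-TE and MT-TP, for glutamine, alanine, asparagine, cysteine, tyrosine, serine, glutamate and proline. Expression was measured in 15 libraries from wild-type H9, a long-established line of human embryonic stem cells. The cells were being steered toward the osteogenic lineage and were lysed on day 7. From day 5, ascorbic acid, vitamin D3 and β-glycerophosphate were given to all groups as osteogenic factors. The controls (UNT) received the vehicle, DMSO at 0.1%. From day 0 the exposed groups received fine particulate matter (FPM) at 0.00062 µg/mL (FPM_IC25) or 1.4 µg/mL (FPM_IC50), or a NIST standard reference material (SRM) at 0.003 µg/mL (SRM_IC25) or 5.9 µg/mL (SRM_IC50), concentrations set by inhibition of protein to 25 and 50%. Each of the 5 groups had 3 libraries, all from 1 cell line.

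Both strands of mitochondrial DNA are copied by the polymerase POLRMT, with the factors TFAM and TFB2M, into long RNAs that hold many genes. The tRNAs lie between the other genes, and cutting them out at both ends releases the rRNAs and mRNAs. Since the genes are unevenly split between the strands, most of the RNA copied from the light strand is antisense to heavy-strand genes, and is normally removed by the SUPV3L1 and PNPT1 complex with the RNA-binding protein GRSF1. The mRNAs are polyadenylated and held stable by LRPPRC and SLIRP, and their products are subunits of the respiratory chain and of ATP synthase.

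Shown are the light-strand tRNA genes MT-TN, MT-TC, MT-TY and MT-TS1, which had few counts without FPM and many with it. Also shown are MT-TQ and MT-TA, whose levels in the FPM libraries overlapped with those in the others. MT-TA, MT-TN, MT-TC and MT-TY lie side by side. Sequences are from the GENCODE 29 transcripts of the human genome GRCh38, all on the minus strand of chrM, 5′ to 3′, with the anticodon in capitals. MT-TQ is at chrM:4329-4400, MT-TA at chrM:5587-5655, MT-TN at chrM:5657-5729, MT-TC at chrM:5761-5826, MT-TY at chrM:5826-5891 and MT-TS1 at chrM:7446-7514.
MT-TQ: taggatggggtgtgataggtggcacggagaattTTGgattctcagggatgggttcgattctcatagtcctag
MT-TA: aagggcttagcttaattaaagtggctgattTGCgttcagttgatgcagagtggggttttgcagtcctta
MT-TN: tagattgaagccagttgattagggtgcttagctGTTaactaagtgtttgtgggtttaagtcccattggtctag
MT-TC: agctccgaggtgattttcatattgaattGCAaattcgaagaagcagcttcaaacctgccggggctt
MT-TY: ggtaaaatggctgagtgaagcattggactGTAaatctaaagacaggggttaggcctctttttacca
MT-TS1: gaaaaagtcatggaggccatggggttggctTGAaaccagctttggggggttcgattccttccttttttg

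MT-ND6 and MT-ND5 end next to each other on opposite strands, which is why their last 60 bases are shown, with the stop codon in capitals. The end of MT-ND6 is at chrM:14149-14208 on the minus strand, and that of MT-ND5 at chrM:14089-14148 on the plus strand. The letters show the strand bias in composition: the RNA of MT-ND6 held 35.6% G and 7.05% C over its 525 bases, while the 12 heavy-strand protein genes held 6.28 to 16.2% G and 29.5 to 36.0% C. The 8 light-strand tRNAs held 23.5 to 36.1% G and the 14 heavy-strand tRNAs 10.3 to 19.1% G.
MT-ND6: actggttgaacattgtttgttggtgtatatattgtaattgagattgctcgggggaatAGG
MT-ND5: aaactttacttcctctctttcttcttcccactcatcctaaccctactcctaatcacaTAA

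Total counts were between 9340745 and 58239176 per library, so that 3 counts, the limit that a count of 0 allows, corresponded to 0.0515 to 0.321 CPM, the count scaled to a common library size. Such limits cover counting error only. The labels do not say whether replicates were separate cultures, so the p-values speak only of the spread among these libraries. The 6 FPM libraries stood apart from the other 9 in the share of counts in genes of GENCODE type antisense, 0.942 to 1.499% against 0.274 to 0.319%, and no values overlapped. A directional kit was used, but whether the counting used strand is not given in the sources used here, and every member has another mitochondrial gene on the opposite strand within 5 kb. Reads of a member and of RNA antisense to it may thus not be told apart. RNA was selected by its poly(A) tail, which mature tRNAs and rRNAs mostly lack, so counts on those genes need not be mature molecules. Markers of the pluripotent state (8 genes) summed to 1324 to 3144 CPM over the libraries, and 8 osteoblast markers to 523 to 1055 CPM. Of the latter, SPP1, COL1A1 and ALPL, which encode 2 bone matrix proteins and an alkaline phosphatase, had means of 374 ± 65.8, 231 ± 21.8 and 88.3 ± 7.59 CPM in UNT, while the bone matrix gene IBSP was at 0 in all libraries of FPM_IC50, SRM_IC25 and SRM_IC50. In these bulk samples, fewer cells of a type and less RNA per cell cannot be told apart.

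The light strand took a larger share of mitochondrial RNA in every FPM library than in any other library. Mitochondrial genes as a whole held 4.95, 5.01 and 4.64% of all counts in UNT replicates 1 to 3, 3.22, 4.497 and 3.94% at FPM_IC25, 3.79, 3.99 and 3.99% at FPM_IC50, 4.33, 4.66 and 4.17% at SRM_IC25 and 5.16, 5.37 and 4.65% at SRM_IC50. The FPM libraries held most of the low values, although the highest of them lay within the range of SRM_IC25. Of the mitochondrial counts, the 9 light-strand genes took 0.226, 0.217 and 0.306% in UNT, 1.21, 0.944 and 1.002% at FPM_IC25, 1.34, 1.12 and 1.31% at FPM_IC50, 0.169, 0.185 and 0.214% at SRM_IC25 and 0.2196, 0.215 and 0.294% at SRM_IC50. The FPM libraries did not overlap with the rest, UNT overlapped with SRM_IC50, and SRM_IC25 lay just below both. The mean share was 0.2498 ± 0.0487% (SD, n = 3) in UNT, 1.05 ± 0.142% at FPM_IC25 and 1.25 ± 0.121% at FPM_IC50. The antisense-type share of all counts stood at 0.282 ± 0.00768%, 1.07 ± 0.173% and 1.21 ± 0.252% in the same 3 groups, and its part in the light-strand values was not tested. If the FPM libraries were prepared or counted with another handling of strand than the rest, on which no source used here gives information, that and the exposure cannot be told apart in any light-strand value.

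**Figure D1:**
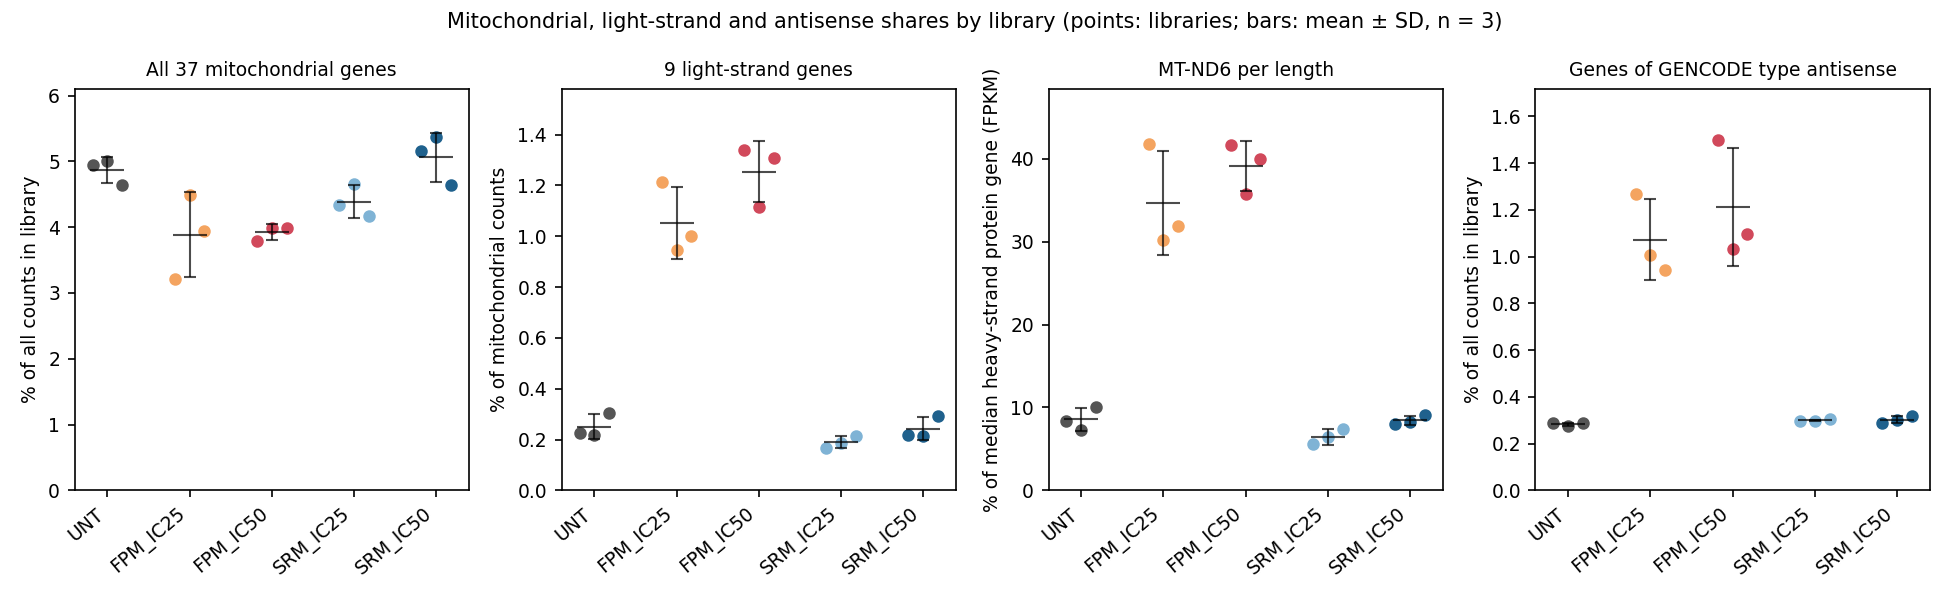
Shares by library in the 5 groups, in percent: all 37 mitochondrial genes among all counts, the 9 light-strand genes among mitochondrial counts, MT-ND6 against the median heavy-strand protein gene per length, and genes of GENCODE type antisense among all counts. Points are libraries and bars the mean ± SD (n = 3); the 6 FPM libraries lie above the other 9 in the last 3 panels, for instance at 0.944 to 1.34% against 0.169 to 0.306% for the light strand.

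The same split was seen within the tRNA genes and within the protein genes. Light-strand genes held 61.4 to 68.03% of the counts on tRNA genes in UNT, 50.9 to 55.5% at SRM_IC25 and 60.1 to 70.4% at SRM_IC50, and 90.7 to 95.4% in the FPM libraries. These are shares of few molecules: all 22 tRNA genes made up 0.0303 to 0.0609% of mitochondrial counts without FPM and 0.175 to 0.313% with it. The summed level of the heavy-strand tRNA genes, most of it from MT-TT, MT-TL1 and MT-TI, overlapped, at 5.16 to 9.51 CPM in the FPM libraries and 5.83 to 9.02 CPM in the others, while the light-strand tRNA genes summed to 60.1 to 108 and 7.27 to 21.1 CPM. Among the 13 protein genes, MT-ND6 took 0.946 to 1.303% of counts in the FPM libraries and 0.183 to 0.343% in the others.

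Levels of different genes were compared per length, as FPKM (fragments scaled to gene length and library total). In the vehicle control the order was led by MT-CO3, MT-CO2 and MT-CO1, the mitochondrially encoded subunits of cytochrome c oxidase, at 7951 ± 198 (SD, n = 3), 7121 ± 629 and 6454 ± 453 FPKM. MT-CO2 overlapped with MT-CO1, and MT-CO1 with MT-RNR2, the large ribosomal RNA, at 5847 ± 323 FPKM. MT-ATP6, a subunit of ATP synthase, followed at 4872 ± 285 FPKM without overlap with its neighbours. The next 9 heavy-strand genes, from MT-ND4 at 3082 ± 443 FPKM through MT-ATP8, MT-CYB, MT-ND1, MT-ND3, MT-RNR1, MT-ND2 and MT-ND4L to MT-ND5 at 1114 ± 261 FPKM, each overlapped with the next. MT-ND6 was the lowest of the protein genes, at 203 ± 28.6 FPKM, and overlapped neither with MT-ND5 above it nor with MT-TP below it. MT-TP and MT-TQ, both light-strand, and MT-TT, heavy-strand, led the tRNA genes at 93.8 ± 31.3, 70.4 ± 18.3 and 63.4 ± 13.3 FPKM, where MT-TP overlapped with MT-TQ and MT-TQ with MT-TT.

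MT-ND6 (ENSG00000198695, chrM:14149-14673, minus strand), the only protein gene of the light strand and a gene without introns like all members, was higher in the FPM libraries than in all others. Its CPM was 99.7, 99.9 and 131 in UNT, 316, 343 and 322 at FPM_IC25, 375, 349 and 426 at FPM_IC50, 65.5, 81.3 and 82.05 at SRM_IC25 and 101, 105 and 124 at SRM_IC50. The FPM libraries lay above all others, the SRM_IC25 libraries below all others, and SRM_IC50 overlapped with UNT. By edgeR's quasi-likelihood test, with Benjamini-Hochberg adjustment over the 19012 genes tested, MT-ND6 rose against UNT 2.97-fold at FPM_IC25 (log2 1.57 ± 0.13, where ± on a log2 value is the SE here and throughout, adjusted p = 8.88e-08) and 3.48-fold at FPM_IC50 (log2 1.80 ± 0.13, adjusted p = 1.93e-08). Per length, MT-ND6 stood at 8.35, 7.26 and 10.03% of the median heavy-strand protein gene in UNT, at 30.2 to 41.8% at FPM_IC25 and at 35.8 to 41.7% at FPM_IC50. Set against its neighbour MT-ND5, which ends where MT-ND6 ends, it was at 13.6, 17.1 and 26.9% in UNT, 77.8, 46.5 and 63.4% at FPM_IC25 and 77.9, 59.1 and 84.9% at FPM_IC50. The mRNA of MT-ND5 is known to run on past its stop codon into sequence antisense to MT-ND6.

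The 8 light-strand tRNA genes did not move as 1 block. MT-TN, MT-TC, MT-TY and MT-TS1 had few counts without FPM and many with it, and MT-TP and MT-TE were present everywhere and higher with FPM. For MT-TQ and MT-TA the FPM libraries overlapped with the others. MT-TC, whose tRNA carries cysteine, had 1, 3 and 2 counts in UNT, 59, 162 and 403 at FPM_IC25, 123, 174 and 113 at FPM_IC50, 0, 7 and 6 at SRM_IC25 and 2, 4 and 6 at SRM_IC50. MT-TY, for tyrosine, had 4, 6 and 1 counts in UNT, 66, 138 and 300 at FPM_IC25, 100, 143 and 63 at FPM_IC50, 0, 22 and 7 at SRM_IC25 and 1, 2 and 6 at SRM_IC50. MT-TN, for asparagine, had 3, 2 and 2 counts in UNT, 12, 87 and 213 at FPM_IC25, 80, 63 and 55 at FPM_IC50, 0, 4 and 1 at SRM_IC25 and 2, 1 and 1 at SRM_IC50. Each FPM library was above each other library for all 3 genes on the CPM scale, which allows for the unequal depths. Over summed counts, the level of MT-TC at FPM_IC25 was 61.3 times (95% interval 28.01 to 168) that in UNT, the level of MT-TY 27.01 times (95% interval 14.97 to 54.5) and the level of MT-TN 26.3 times (95% interval 12.6 to 65.9), with intervals for counting error only. At FPM_IC50 the ratios were 88.1 times (95% interval 40.2 to 242), 35.9 times (95% interval 19.8 to 72.6) and 36.5 times (95% interval 17.4 to 91.9).

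MT-TS1, a serine tRNA gene directly after MT-CO1 on the other strand, reached the level of MT-TP with FPM, at 349 ± 63.8 and 544 ± 61.4 FPKM in the 2 groups against 307 ± 9.11 and 403 ± 99.2 for MT-TP. It had 15, 8 and 22 counts in UNT, 187, 605 and 1365 at FPM_IC25, 413, 707 and 375 at FPM_IC50, 7, 27 and 1 at SRM_IC25 and 9, 10 and 6 at SRM_IC50. Its CPM went from 0.853 ± 0.445 in UNT to 23.4 ± 4.44 at FPM_IC25 and 36.4 ± 3.35 at FPM_IC50, a fitted log2 fold change of 4.80 ± 0.29 and 5.42 ± 0.29. The FPM groups did not overlap with any other. Per length, MT-TS1 stood at 0.156, 0.104 and 0.303% of MT-CO1 in UNT, 5.81, 6.26 and 5.65% at FPM_IC25 and 10.6, 9.36 and 8.47% at FPM_IC50. The mRNA of MT-CO1 is known to keep sequence antisense to MT-TS1 at its 3′ end. MT-TN, MT-TC and MT-TY passed the filter on low counts only through the FPM libraries: none of the other 9 libraries reached its minimum of 0.565 CPM, and for MT-TS1 2 did. These genes therefore had to differ once tested, and their adjusted p-values, all past the threshold, add nothing to the counts above. Over summed counts MT-TS1 was 28.3 times (95% interval 21.05 to 38.9) its UNT level at FPM_IC25 and 42.9 times (95% interval 31.9 to 59.01) at FPM_IC50.

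MT-TP, the proline tRNA gene, has the highest coordinates of the light-strand genes and was higher with FPM from a measurable base. Its CPM was 4.58, 6.05 and 9.21 in UNT, 20.7, 19.8 and 20.3 at FPM_IC25, 31.5, 19.3 and 29.1 at FPM_IC50, 2.57, 3.16 and 4.099 at SRM_IC25 and 5.05, 4.43 and 11.3 at SRM_IC50. All FPM libraries lay above all others; the log2 fold change against UNT was 1.63 ± 0.30 (adjusted p = 0.000728) at FPM_IC25 and 2.01 ± 0.30 (adjusted p = 9.16e-05) at FPM_IC50. MT-TE, for glutamate, directly upstream of MT-ND6, had 1.09, 0.764 and 0.671 CPM in UNT, 1.65, 1.53 and 1.75 at FPM_IC25 and 1.66, 2.33 and 2.72 at FPM_IC50. It rose by a log2 fold change of 0.95 ± 0.25 (adjusted p = 0.01497) and 1.39 ± 0.26 (adjusted p = 0.000745). The call at FPM_IC25 was lost without UNT replicate 2 (adjusted p = 0.0667), UNT replicate 3 (0.0721) or FPM_IC25 replicate 3 (0.0816), and without the filter (0.0527).

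MT-TQ and MT-TA were the light-strand genes that were not called in either FPM group. MT-TQ, which overlaps the heavy-strand gene MT-TI by 3 bases, had 4.38, 4.41 and 6.95 CPM in UNT, 3.395, 3.295 and 3.41 at FPM_IC25 and 4.29, 5.45 and 5.16 at FPM_IC50. The FPM_IC25 values were below the UNT values, with a log2 fold change of -0.63 ± 0.22 (adjusted p = 0.0656), and those of FPM_IC50 overlapped with UNT (-0.06 ± 0.22, adjusted p = 0.906). All FPM values of MT-TQ were above those of SRM_IC25, at 3.03, 2.35 and 3.13 CPM. MT-TA, next to MT-TN, had 1.09, 0.764 and 0.732 CPM in UNT, 1.03, 0.6497 and 0.723 at FPM_IC25 and 0.487, 1.14 and 1.09 at FPM_IC50, with log2 fold changes of -0.21 ± 0.33 (adjusted p = 0.749) and 0.11 ± 0.34 (adjusted p = 0.888). Its groups overlapped. Together, MT-TN, MT-TC, MT-TY and MT-TS1 made up 8.52 to 9.31% of the light-strand tRNA counts in UNT. Their share was 4.03 to 15.4% over all libraries without FPM and 55.5 to 65.6% with it. They were grouped by these same counts, so the higher share with FPM follows from the grouping and is no separate result.

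**Figure D2:**
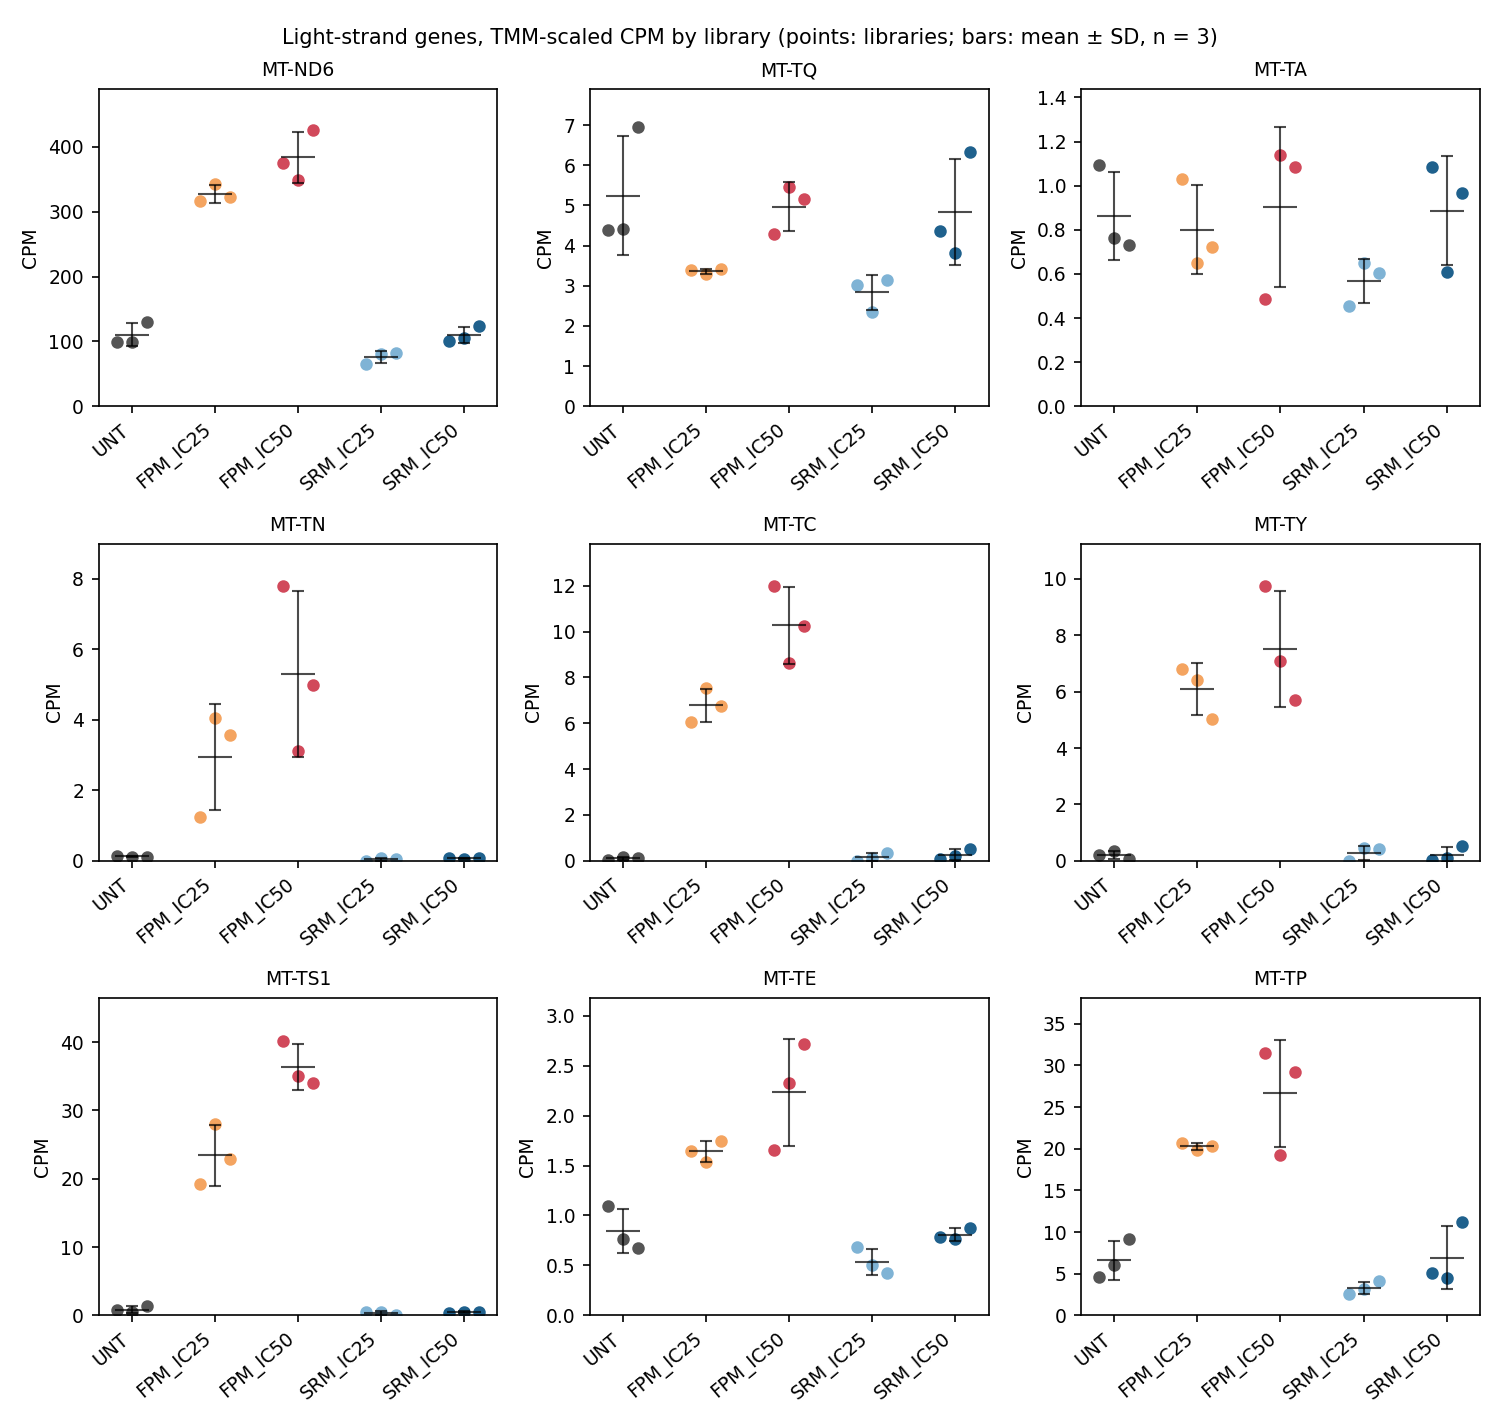
TMM-scaled CPM of the 9 light-strand genes by library in the 5 groups, each panel with its own linear axis from 0; points are libraries and bars the mean ± SD (n = 3). In 7 panels all FPM libraries lie above all others, as for MT-TS1 at 19.2 to 40.2 against 0.0603 to 1.34 CPM, while MT-TQ and MT-TA overlap.

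Of the members, 7 had all 6 FPM libraries above the other 9 and all 7 were light-strand genes (MT-ND6, MT-TN, MT-TC, MT-TY, MT-TS1, MT-TE and MT-TP); 9.71% of the 19012 genes tested had that pattern. Among the 7, MT-TN, MT-TC, MT-TY and MT-TS1 passed the filter on low counts almost only through the FPM libraries. Their place in this count thus largely followed from the filter. With all FPM libraries below the rest there were 2 members, MT-CO2 and MT-ATP6, both heavy-strand, against 0.473% of genes. No heavy-strand gene of the 17 that could be tested had its FPM libraries all above the rest.

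Heavy-strand protein and rRNA genes were lower with FPM or did not pass the test. MT-RNR2, the RNA of the large mitochondrial ribosomal subunit, had 8769, 10070.2 and 9361 CPM in UNT, 5683, 6569 and 6044 at FPM_IC25, 5898, 6435 and 6012 at FPM_IC50, 6293, 7899.8 and 7253 at SRM_IC25 and 9726, 9984 and 10062 at SRM_IC50. Both FPM groups lay below UNT and SRM_IC50 but overlapped with SRM_IC25. The log2 fold change of MT-RNR2 against UNT was -0.62 ± 0.11 (adjusted p = 0.000416) at FPM_IC25 and -0.62 ± 0.11 (adjusted p = 0.000417) at FPM_IC50. MT-ATP6 had 3147, 3668 and 3452 CPM in UNT, 1626, 2561 and 2304 at FPM_IC25, 1948, 2319.8 and 2459.7 at FPM_IC50, 2782, 3128 and 2763 at SRM_IC25 and 3589, 3607 and 3665 at SRM_IC50. MT-CO2 had 4377, 5382 and 5327 CPM in UNT, 2654, 3763 and 3495 at FPM_IC25, 3131, 3176 and 3726 at FPM_IC50, 3966, 4910.3 and 4403 at SRM_IC25 and 4796, 5218 and 5784 at SRM_IC50. For both genes every FPM library was below every other library.

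MT-ATP8, which encodes the small ATP synthase subunit and shares 46 bases with MT-ATP6, was lower too, with log2 fold changes of -0.75 ± 0.16 (adjusted p = 0.00287) and -0.65 ± 0.16 (adjusted p = 0.00844). MT-CO1, the most counted member, did not pass the test: its CPM was 10721, 10136 and 9884 in UNT, 7397, 10016 and 9079 at FPM_IC25 and 8517, 8369 and 8953 at FPM_IC50, with log2 fold changes of -0.21 ± 0.12 and -0.25 ± 0.12 (adjusted p = 0.267 and 0.195). MT-ND5 and MT-ND4L, subunits of complex I, had a wide spread between replicates in UNT, at FPM_IC25 and at SRM_IC50. MT-ND5 had 2523, 2018 and 1676 CPM in UNT and 2634, 2470.2 and 1359.6 at SRM_IC50, and MT-ND4L 512, 363 and 257 and 555, 537 and 221 CPM. At FPM_IC25 MT-ND5 had 1401, 2547 and 1754 CPM and MT-ND4L 336, 582 and 359 CPM. For both genes the lowest of the 3 was replicate 3 in UNT and at SRM_IC50, but replicate 1 at FPM_IC25. As a share of MT-CO2 counts, MT-ND4L stood at 11.7, 6.74 and 4.83% in UNT and 11.6, 10.3 and 3.83% at SRM_IC50.

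**Figure D3:**
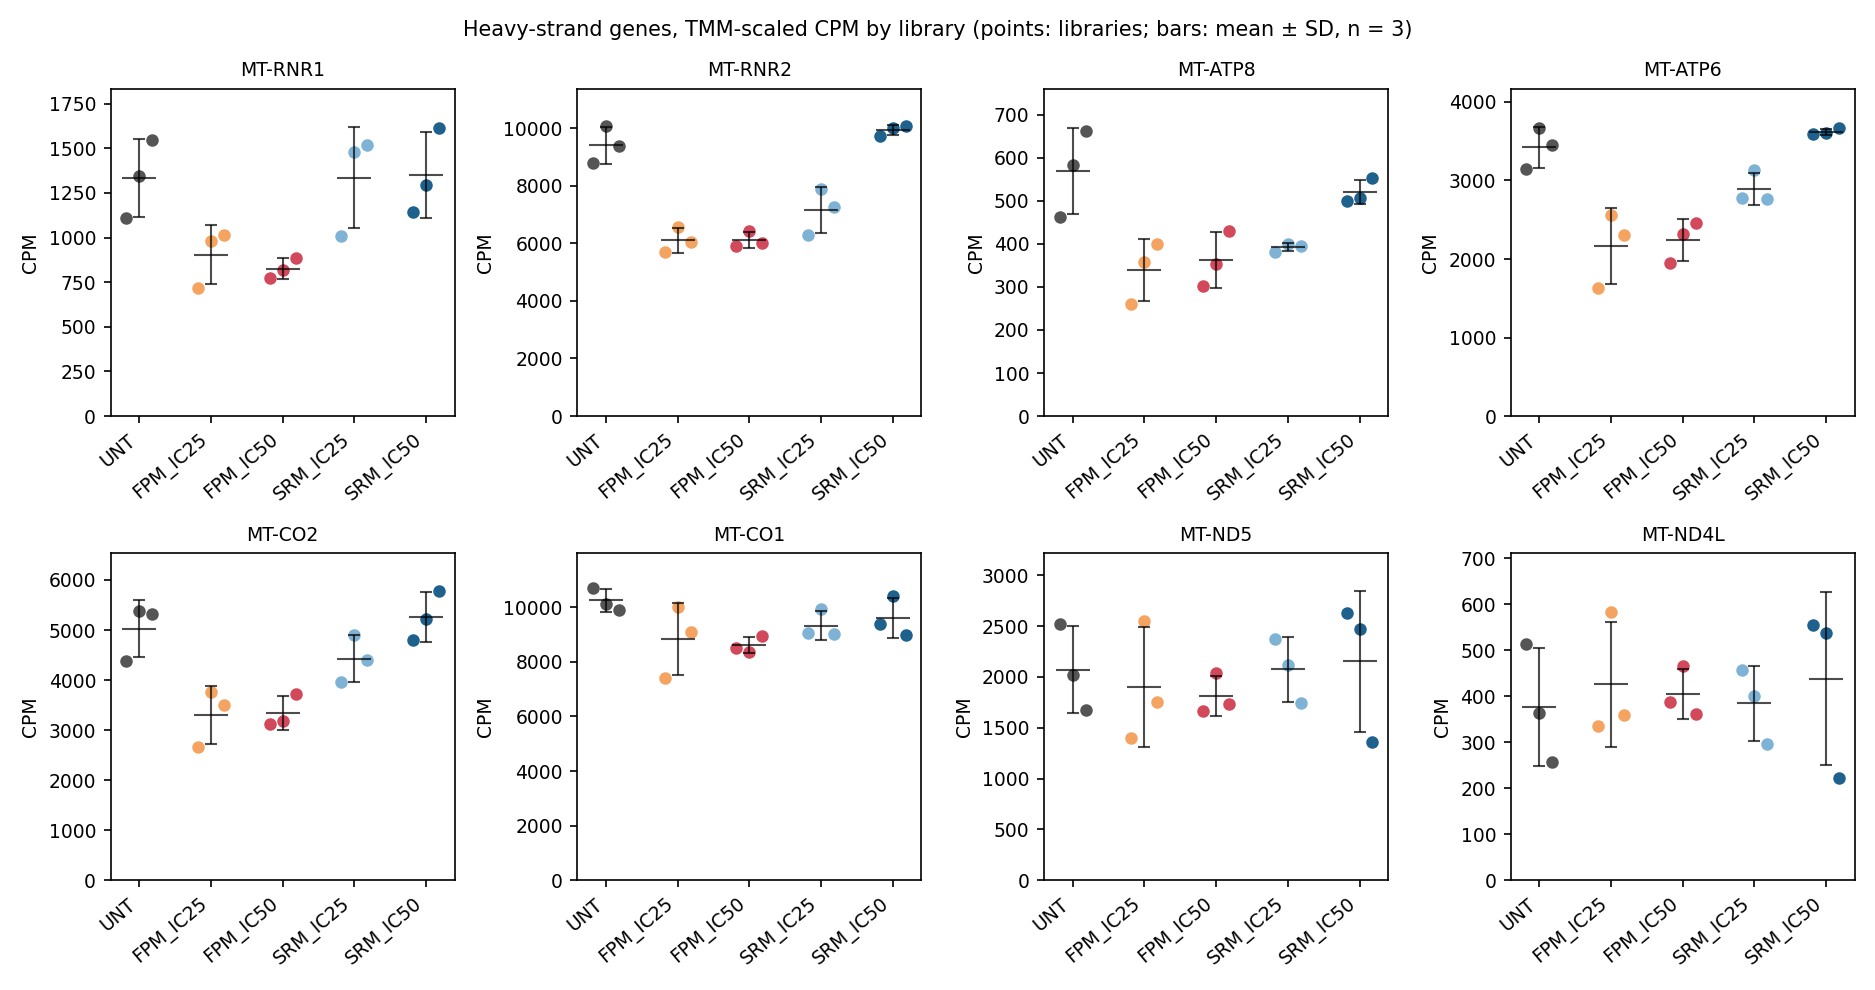
TMM-scaled CPM of 8 heavy-strand genes by library in the 5 groups, each panel with its own linear axis from 0; points are libraries and bars the mean ± SD (n = 3). In MT-CO2 and MT-ATP6 all FPM libraries lie below all others, as for MT-ATP6 at 1626 to 2561 against 2763 to 3668 CPM, while MT-CO1, MT-ND5 and MT-ND4L overlap.

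Against UNT at FPM_IC25, 7 members were called higher and 7 lower among the 26 that passed the filter; of all 19012 genes tested, 10.7% were called higher and 3.51% lower. The 7 higher were all light-strand genes, among them MT-TN, MT-TC, MT-TY and MT-TS1, which the filter let pass almost only through these libraries. The 7 lower were all heavy-strand: MT-ATP8, MT-ATP6, MT-RNR2, MT-CO2, MT-ND2 (-0.57 ± 0.16, adjusted p = 0.0213), MT-RNR1 (-0.56 ± 0.18, 0.0458) and MT-CO3 (-0.39 ± 0.13, 0.04904). The last 3 lay near the threshold, and each lost its call without FPM_IC25 replicate 1 (adjusted p = 0.0627 for MT-ND2, 0.199 for MT-RNR1 and 0.208 for MT-CO3), UNT replicate 2 (0.106, 0.143 and 0.192) or UNT replicate 3 (0.0566, 0.218 and 0.134), and with a correction for GC content (0.0555, 0.109 and 0.0931). MT-RNR1 also lost it without FPM_IC25 replicate 2 (0.0724), and MT-CO3 without UNT replicate 1 (0.0659) or FPM_IC25 replicate 3 (0.0859). At FPM_IC50, 7 were called higher and 5 lower, where 10.8 and 2.77% of all genes were. The 7 higher were the same light-strand genes, and the 5 lower were MT-RNR1 (-0.69 ± 0.18, 0.0132), MT-ATP8, MT-RNR2, MT-ATP6 and MT-CO2. MT-RNR1 and MT-ATP8 lost their calls without UNT replicate 3 (adjusted p = 0.0744 and 0.0576) or FPM_IC50 replicate 1 (0.0633 and 0.0578). The median log2 fold change over the 17 heavy-strand genes tested was -0.40 at FPM_IC25 and -0.32 at FPM_IC50, where the median of all genes was within 0.01 of 0. Of the 8 pluripotency markers 5 were called lower at FPM_IC25 and 2 at FPM_IC50 (summed levels of 1324 to 1350 and 1333 to 1661 CPM against 1757 to 2010 CPM in UNT), of the 6 neuroectoderm markers 6 were lower at FPM_IC25 (173 to 282 CPM against 407 to 444 CPM), and of the 8 amnion and trophoblast markers 3 were higher at FPM_IC50 (1402 to 2133 CPM against 1452 to 1748 CPM). Their part in the mitochondrial values was not tested.

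**Figure D4:**
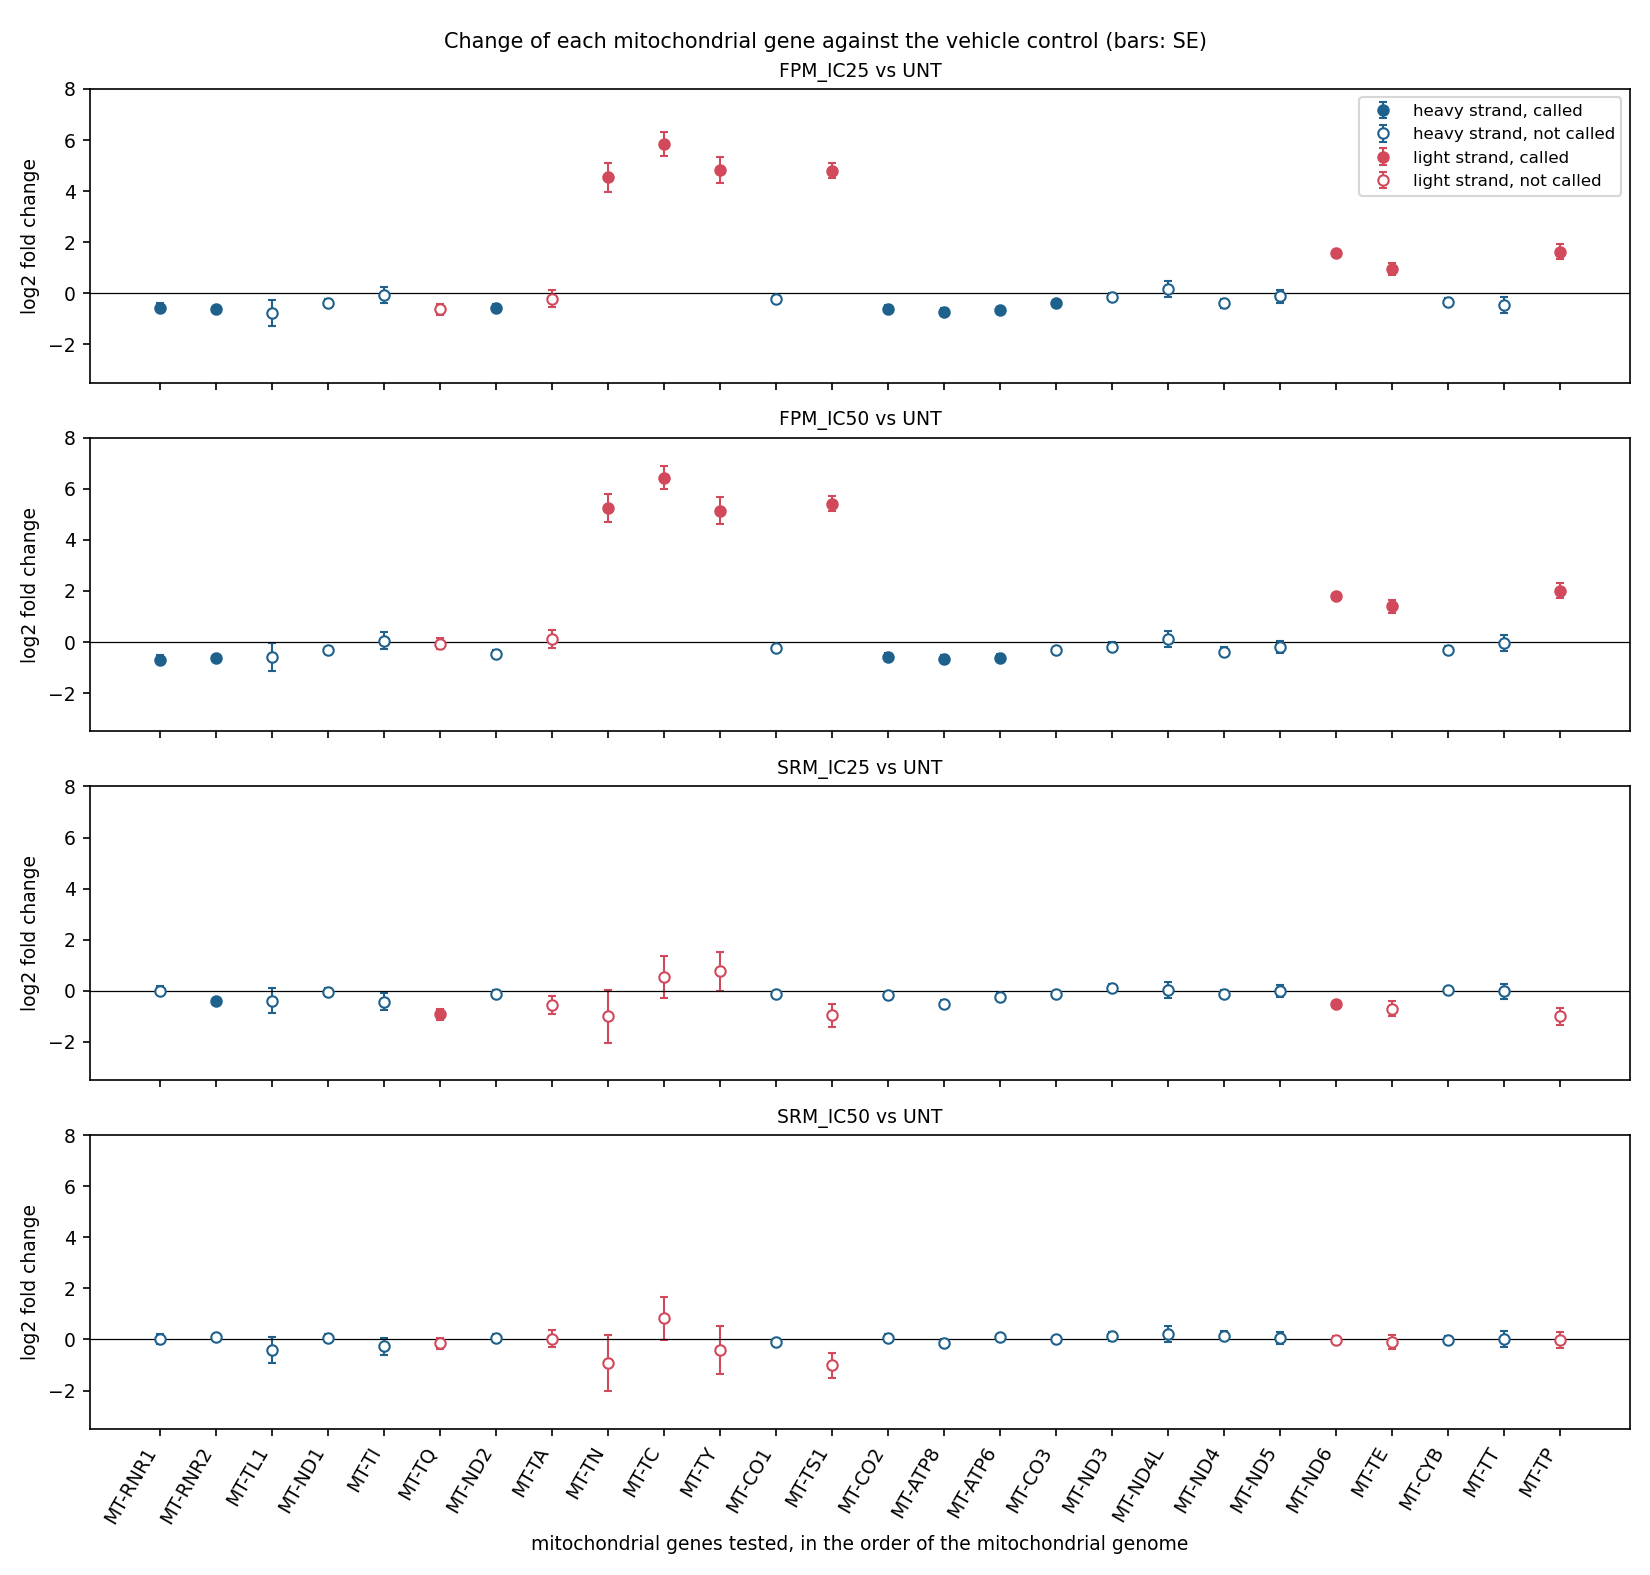
Log2 fold change of the 26 tested mitochondrial genes against the vehicle control, with SE, in 4 panels for FPM_IC25, FPM_IC50, SRM_IC25 and SRM_IC50; genes follow their order along the genome, filled points passed an adjusted p of 0.05 and open points did not. With FPM the 4 highest points are MT-TN, MT-TC, MT-TY and MT-TS1, from 4.54 to 6.43, and in the SRM_IC50 panel no point is filled.

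Scaled to the sum of the 12 heavy-strand protein genes in place of all genes, the comparison asks whether a member moved relative to them. This scaling raised the median log2 fold change of all genes by 0.39 at FPM_IC25 and 0.36 at FPM_IC50. On it, MT-ND6 rose by 1.96 (adjusted p = 3.93e-10) and 2.15 (6.76e-11) on the log2 scale, MT-TP by 2.01 and 2.36, and MT-TE by 1.31 and 1.74. The same 7 light-strand genes were called in each FPM group, out of 26 members tested. Of all genes, 33.9% were called at FPM_IC25 and 27.9% at FPM_IC50 on this scaling. Of these, MT-TN, MT-TC, MT-TY and MT-TS1 passed the filter almost only through the FPM libraries. No heavy-strand gene was called. The 12 protein genes are themselves part of the sum that scales them, so a lack of calls among them was largely fixed in advance. The heavy-strand differences above thus hold relative to all genes of the library. The rRNA genes, which are not part of the sum, were not called relative to it, with MT-RNR2 at -0.23 (adjusted p = 0.301) and -0.26 (0.256).

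No member passed the test between the 2 FPM concentrations. Of the 26 tested, 0 were called between FPM_IC50 and FPM_IC25 by edgeR, with 3 at an unadjusted p under 0.05, 0 by DESeq2 and 0 by limma, and without the filter 1 was called, MT-TS1; 0.0105% of all genes were called. The log2 difference of MT-ND6 was 0.23 ± 0.12 and that of MT-TS1 0.62 ± 0.20 (adjusted p = 0.7703 for MT-TS1). All 9 light-strand genes had fitted differences above 0, from 0.23 to 0.70, at adjusted p-values over the threshold.

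With the NIST material at 0.003 µg/mL, 3 members were lower than in UNT by the test, at adjusted p-values of 0.0307 to 0.0477. Against UNT, 3 members were called lower at SRM_IC25, MT-ND6 (-0.53 ± 0.12, adjusted p = 0.0307), MT-TQ (-0.92 ± 0.22, 0.0336) and MT-RNR2 (-0.40 ± 0.11, 0.0477), and 0 higher, where 3.38% of all genes were called lower and 0.989% higher. In UNT, MT-TQ had 4.38, 4.41 and 6.95 CPM and at SRM_IC25 3.03, 2.35 and 3.13 CPM, without overlap. No member was called after leaving out UNT replicate 2, UNT replicate 3 or any 1 of the SRM_IC25 libraries, nor with a correction for GC content. Few genes of any kind were called there: 0 and 0.0105% of all genes without UNT replicates 2 and 3. Without SRM_IC25 replicates 1, 2 and 3 the share was 2.05, 0 and 0%, and with the GC correction 0%. MT-TP, at 2.57, 3.16 and 4.099 CPM, lay below UNT without passing the test (-0.998 ± 0.33, adjusted p = 0.0924), as did MT-ATP8 (-0.54 ± 0.16, 0.0637). Both were called by DESeq2, and both without the filter. MT-TS1, MT-TN, MT-TC and MT-TY did not pass the test at SRM_IC25, with adjusted p-values from 0.227 to 0.746. Of the 8 pluripotency markers 4 were called lower in the same comparison, with summed levels of 1358 to 1423 CPM at SRM_IC25 and 1757 to 2010 CPM in UNT, and their part in the mitochondrial values was not tested.

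At 5.9 µg/mL no member differed from UNT by the test. Of the 26, edgeR called 0 at SRM_IC50, with 0 at an unadjusted p under 0.05 and 0 by DESeq2, while limma on log2(FPKM + 1) called 1 (MT-TW, a tRNA gene of few counts) and the fit without the filter 1 (MT-TS1); 17.6% of all genes were called. MT-ND6 differed by -0.01 ± 0.12 and MT-RNR2 by 0.08 ± 0.11 on the log2 scale. Between the 2 concentrations, 4 members were called higher at SRM_IC50 than at SRM_IC25 and 0 lower, where 13.7% of all genes were higher and 13.2% lower. They were MT-ND6 (0.52 ± 0.12, adjusted p = 0.00507), MT-RNR2 (0.47 ± 0.11, 0.00357), MT-TQ (0.77 ± 0.22, 0.0168) and MT-TP (0.99 ± 0.33, 0.0373). The tRNA genes lost their calls without SRM_IC25 replicate 2 (adjusted p = 0.119 for MT-TQ and 0.13 for MT-TP) or SRM_IC50 replicate 3 (0.0664 and 0.163), leaving 2 calls each time, and MT-TP also without SRM_IC25 replicate 1 (0.0984). In this comparison 7 of 8 pluripotency markers were called higher and 8 of 8 amnion and trophoblast markers lower, the latter summing to 339 to 376 CPM at SRM_IC50 and 1441 to 1735 CPM at SRM_IC25. Against UNT at SRM_IC50, 5 pluripotency markers and 2 of the 6 osteoblast markers tested were called higher, and 8 amnion and trophoblast, 6 of 6 epithelium and 5 of 6 neuroectoderm markers lower. Their part in the mitochondrial values was not tested.

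Setting the 2 particles side by side at the same inhibitory level, the concentrations differ (0.00062 against 0.003 µg/mL, and 1.4 against 5.9 µg/mL). FPM_IC25 exceeded SRM_IC25 in 7 members and was below it in 0, where 9.89% of all genes were higher and 0.605% lower. The 7 were the light-strand genes named above, with MT-ND6 at 2.10 ± 0.13 (adjusted p = 5.23e-09), MT-TP at 2.62 ± 0.31 (9.26e-06) and MT-TE at 1.65 ± 0.26 (0.000168) on the log2 scale. Of the 7, MT-TN, MT-TC, MT-TY and MT-TS1 passed the filter almost only through the FPM libraries. Their calls add nothing here or in the next comparison. Without FPM_IC25 replicate 2 the number of members called was 12 and without the filter 13, where 9.38 and 7.17% of all genes were called. FPM_IC50 exceeded SRM_IC50 in the same 7 and was below it in 8, where 23.2% of all genes were higher and 16.2% lower. MT-ND6 differed by 1.81 ± 0.13 (adjusted p = 1.26e-08), and the 8 lower were MT-RNR1 (-0.71 ± 0.18, 0.00451), MT-RNR2 (-0.70 ± 0.11, 6.71e-05), MT-ATP6, MT-CO2, MT-ND4, MT-ND2, MT-ATP8 and MT-CO3, the last at -0.33 ± 0.13 (0.0463). MT-ND4, MT-ND2, MT-ATP8 and MT-CO3 lost their calls without FPM_IC50 replicate 1 (adjusted p = 0.0815, 0.0572, 0.0785 and 0.129). MT-ND4 also lost it without SRM_IC50 replicate 1 (0.0703) or 2 (0.0698), and MT-CO3 without FPM_IC50 replicate 2 (0.117) or SRM_IC50 replicate 1 (0.0622), 2 (0.132) or 3 (0.0568). MT-TQ and MT-TA were called in neither comparison. At FPM_IC50 against SRM_IC50, 8 of 8 amnion and trophoblast, 6 of 6 epithelium and 5 of 6 neuroectoderm markers were called higher. Lower were 6 of 8 pluripotency and 4 of 6 osteoblast markers, with 1 osteoblast marker higher. Their part in the mitochondrial values was not tested.

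Whether the difference between concentrations itself differed between the particles was tested in the same fit, and 1 member of 26 was called, MT-RNR2, at -0.47 ± 0.15 on the log2 scale for FPM less SRM (adjusted p = 0.04804), where 14.6% of all genes were called. It was higher at the higher concentration of SRM, as given above, and 0.00 ± 0.11 apart between the concentrations of FPM. The call was lost in 10 of the 12 fits that left out 1 FPM or SRM library, with adjusted p-values of 0.0561 to 0.121, and kept without FPM_IC25 replicate 1 or SRM_IC25 replicate 2. MT-ND6 was not called (-0.29 ± 0.17, adjusted p = 0.308). A single test over all 5 groups called 16 of the 26 members, 8 heavy-strand and 8 light-strand, where 40.8% of all genes were called.

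The 11 members that could not be tested were all heavy-strand tRNA genes: MT-TF, MT-TV, MT-TM, MT-TW, MT-TD, MT-TK, MT-TG, MT-TR, MT-TH, MT-TS2 and MT-TL2. Each had 3 to 54 counts over all 15 libraries and at most 11 in one. MT-TR, for arginine, had 0, 0 and 0 counts in UNT, 3, 3 and 4 at FPM_IC25, 3, 7 and 3 at FPM_IC50, 0, 1 and 2 at SRM_IC25 and 0, 0 and 0 at SRM_IC50. MT-TH, for histidine, had 0, 1 and 1, 0, 1 and 2, 4, 7 and 1, 0, 0 and 0 and 0, 0 and 0 counts in the same order. Most of the counts of both genes were in FPM libraries. Among the 3 heavy-strand tRNA genes that were tested, MT-TT, for threonine, had 3.23, 4.52 and 5.24 CPM in UNT, 3.704, 1.996 and 3.63 at FPM_IC25 and 3.31, 4.01 and 5.16 at FPM_IC50, all overlapping. MT-TL1 and MT-TI stood at 0 to 1.81 and 0.487 to 1.36 CPM in the FPM libraries and 0.615 to 1.997 and 0.5298 to 1.28 CPM in the others, and none of the 3 was called in any comparison.

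Nuclear genes whose products make, cut, hold or degrade mitochondrial RNA were read against the shares of all genes given above, 10.7% higher and 3.51% lower at FPM_IC25 and 10.8 and 2.77% at FPM_IC50. Among 16 genes of transcription and replication, 1 was called higher and 1 lower at FPM_IC25 against UNT (POLG, the DNA polymerase, at 0.48, and TFAM at -0.37 ± 0.09, adjusted p = 0.006798). At FPM_IC50 1 was higher and 3 lower, with SSBP1 at -0.49, POLG at 0.41 and MTERF3 at -0.38. POLG had 46.3 ± 5.74 CPM in UNT, 64.7 ± 3.51 at FPM_IC25, 61.4 ± 4.66 at FPM_IC50 and 60.6 ± 3.06 at SRM_IC25. In the same order MTERF3 had 26.5 ± 1.39, 21.5 ± 1.37, 20.4 ± 2.56 and 20.5 ± 2.03 CPM. For SSBP1 the values were 121 ± 23.4, 97.1 ± 2.88, 86.7 ± 9.05 and 120 ± 8.41 CPM. POLG and MTERF3 were thus near their FPM levels at SRM_IC25 also. POLRMT had 57.4 ± 1.87 CPM in UNT, 56.9 ± 4.28 at FPM_IC25 and 55.1 ± 6.86 at FPM_IC50, and was not called (adjusted p = 0.943 and 0.778). TFAM, at 125 ± 9.88 CPM in UNT, was also called lower at FPM_IC50 (-0.30, 0.0302) and at SRM_IC25 (-0.33, 0.0447), and not at SRM_IC50 (-0.03, 0.879).

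Of 25 genes of RNA processing and stability, 1 was higher and 2 lower at FPM_IC25, and 1 higher and 4 lower at FPM_IC50. LRPPRC stood at -0.28 ± 0.08 (adjusted p = 0.0206) and -0.27 ± 0.08 (0.0289), its partner SLIRP was not called (-0.05 and -0.15, adjusted p = 0.929 and 0.776), and GRSF1 was lower, at -0.27 (0.0468) and -0.29 (0.0297). TRMT10C, a subunit of the enzyme that cuts the 5′ ends of mitochondrial tRNAs, was lower at FPM_IC50 (-0.43, 0.0172) and SRM_IC25 (-0.43, 0.0453), and PTCD1, which binds precursors of leucine tRNAs, was the gene called higher with FPM (log2 1.096 and 1.05). PTCD1 had 7.58 ± 0.568 CPM at SRM_IC25 and 7.03 ± 0.442 in UNT. Among the 5 genes of RNA decay, SUPV3L1 differed by -0.06 ± 0.08 and -0.13 ± 0.08, and PNPT1 by -0.23 ± 0.08 and -0.22 ± 0.09, with FPM, all at adjusted p-values over the threshold (0.0877 for PNPT1 at FPM_IC25). PNPT1 was called lower at SRM_IC25 (-0.31, 0.0466) and higher at SRM_IC50 (0.29, 0.0228). Of 17 mitochondrial aminoacyl-tRNA synthetases, which load the tRNAs, 1 was lower with each FPM concentration, IARS2 (-0.26 and -0.25). IARS2 had 183 ± 10.1 CPM in UNT, 153 ± 5.44 at FPM_IC25, 154 ± 4.76 at FPM_IC50 and also 153 ± 2.58 at SRM_IC25. At SRM_IC50 TWNK (0.37), PNPT1, EARS2 (0.32) and MARS2 (0.45) were the genes of these lists called higher and HARS2 (-0.29) the one called lower, where 7.96 and 9.59% of all genes were. Between FPM_IC50 and SRM_IC50, 1 gene was higher and 7 lower of the 16 of transcription and replication, 1 and 7 of the 25 of processing and stability, and 1 and 3 of the 17 synthetases, against the 23.2 and 16.2% of all genes given above.

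Reads of mitochondrial RNA can also match old nuclear copies of the mitochondrial genome, which makes the levels of both uncertain. Of 391 such copies listed by symbol, 7 had a mean of at least 1 CPM, and the sum over all copies was 468 to 876 CPM per library. MTATP6P1, on chromosome 1, made up most of it, with 721 ± 41.4 CPM in UNT, 503 ± 51.7 at FPM_IC25, 459.8 ± 48.6 at FPM_IC50, 656 ± 38.2 at SRM_IC25 and 751 ± 50.3 at SRM_IC50. Its means were lower in both FPM groups than in the other 3, as were those of MT-ATP6, its mitochondrial counterpart. MTCO1P12 followed at 63.5 ± 10.6 CPM in UNT. The 7 expressed copies are of MT-ATP6, MT-CO1, MT-ND2, MT-ND1, MT-ND4, MT-CO2 and MT-CO3, all heavy-strand genes.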

How the data were processed

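RNA was measured in 15 libraries of 5 groups with 3 libraries each. The authors deposited 2 tables, one with a count and one with an FPKM value per gene and library; 2 columns, the gene length in each table, belong to no sample. The submitters' processing notes name HISAT2 2.2.1, SAMtools 1.10, featureCounts in Subread 2.0.15, FastQC 0.11.7, DESeq2 and the build GRCh38. Which annotation release was used, and whether counting used strand or reads with several matches, is not given in the sources used here. The deposited FPKM values equalled the counts divided by gene length and library total to within a ratio of 0.999 to 1.001, so they carry no information beyond the counts.

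The members and gene lists were chosen with earlier results of these data known. Strand, type and position came from GENCODE 29, in which 57055 of 60675 genes were placed. Counts were tested with edgeR 4.0.16 (R 4.3.3): TMM scaling, filterByExpr by group (26 members and 19012 genes passed), a robust quasi-likelihood fit of 5 group means over all 15 libraries, and Benjamini-Hochberg adjustment over all genes tested, with a threshold of 0.05. CPM values are TMM-scaled; shares are of raw counts. The test was checked on simulated data. Between replicates of a group, Pearson's r over genes was 0.985 to 0.997, and no replicates differed by less than sampling noise. Intervals of low-count ratios are exact conditional binomial intervals at 95%.

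Alternatives were DESeq2 1.42.0, limma 3.58.1 on log2(FPKM + 1) and log2(FPKM + 0.1), DESeq2 size factors, 3 other scalings, a GC correction, no filter, the replicate number as a block, and leaving out each library. Members were named whatever their values. Other named genes were the called genes of 4 nuclear lists with the largest change, up to 3 per list and comparison, 7 genes chosen for their function, and nuclear copies with a mean of at least 1 CPM. Tables were handled with Python 3.11.15, numpy 2.4.6 and pandas 2.3.3, and plots drawn with matplotlib 3.10.9.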

Additional observations from a re-analysis of the deposited data

Results flagged for a closer look

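MT-RNR2, the large mitochondrial ribosomal RNA, was the member whose difference between concentrations itself differed between the particles, by -0.47 on the log2 scale for FPM less SRM (adjusted p = 0.04804, edgeR's quasi-likelihood test). Its level was 0.47 higher at SRM_IC50 than at SRM_IC25 and 0.00 apart between the FPM concentrations. The adjusted p lay close to the threshold, and 10 of 12 fits that left out 1 library of these groups lost it.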

How the results depend on the processing

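DESeq2 kept 55 of the 55 calls of members it tested, the GC correction 48 of 56, and limma 51 of 56 with either pseudocount. MT-RNR1 at FPM_IC25 was also lost with DESeq2 size factors (adjusted p = 0.0526) and with scaling without the mitochondrial genes (0.0546). The same 2 settings lost MT-CO3 at FPM_IC25 (0.0573 and 0.0635) and MT-RNR2 at SRM_IC25 (0.0558 and 0.0568). Relative to the sum of the heavy-strand protein genes, 28 of 56 calls were kept. MT-CO3, itself part of that sum, reversed between FPM_IC50 and SRM_IC50, to 0.044 on the log2 scale. Members called on that scaling were 7 at FPM_IC25 against UNT, 7 at FPM_IC50, 0 at SRM_IC25, 0 between the SRM concentrations, 7 between FPM_IC50 and SRM_IC50, and 0 in the test of concentration by particle. The last was also 0 with the GC correction and with scaling from genes that have no opposite-strand gene, and 2 (MT-RNR2 and MT-TH) with limma on log2(FPKM + 1). Without the filter 17 members were called at FPM_IC25 against UNT, 18 at FPM_IC50 and 20 between FPM_IC50 and SRM_IC50. There were 5 at SRM_IC25 against UNT, 1 at SRM_IC50 and 1 between the FPM concentrations. Between the SRM concentrations 6 were called, and between FPM_IC25 and SRM_IC25 13. Of the 40668 genes then tested, 3346, 3456, 8112, 791, 3304, 116, 4963 and 2917 were called in the same order. With the GC correction 0 were called at SRM_IC25, where 0% of all genes were. With limma on log2(FPKM + 1) 1 was called at SRM_IC50, where 16.2% of all genes were. The causes of these differences were not tested, except that the fit without the filter tests all 37 members.

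Leaving out 1 library gave 10 to 16 calls at FPM_IC25 against UNT, 10 to 12 at FPM_IC50, 0 to 4 at SRM_IC25 and 0 to 0 at SRM_IC50. It gave 0 to 0 between the FPM concentrations, 2 to 4 between the SRM concentrations, 7 to 12 between FPM_IC25 and SRM_IC25, 11 to 15 between FPM_IC50 and SRM_IC50, and 0 to 1 for concentration by particle. The mitochondrial share ranged over 4.80 to 4.98% in UNT, 3.58 to 4.22% at FPM_IC25, 3.89 to 3.99% at FPM_IC50, 4.25 to 4.50% at SRM_IC25 and 4.90 to 5.27% at SRM_IC50, and the light-strand share over 0.222 to 0.266, 0.973 to 1.11, 1.21 to 1.32, 0.177 to 0.199 and 0.217 to 0.257%. Without the rRNA genes the mitochondrial share was 3.83, 3.17, 3.21, 3.55 and 3.95% in the same order and the light-strand share 0.318, 1.30, 1.53, 0.234 and 0.312%. From FPKM the light-strand share was 0.827, 4.09, 5.26, 0.575 and 0.797%.

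Replicate numbers are shared by the groups, but 16 of 30 same-numbered pairs had a correlation of deviations over 0.1 (range -0.14 to 0.44), and 11 of 15 libraries correlated best with one of their own number. With the number as a block, 56 of 56 calls were kept. It called 18 members at FPM_IC25 against UNT, 14 at FPM_IC50 and 18 between FPM_IC50 and SRM_IC50. It also called 5 at SRM_IC25 against UNT (MT-ATP8 and MT-TP added), 7 between the SRM concentrations and 13 between FPM_IC25 and SRM_IC25. Of the 19012 genes tested, 4079, 3649, 8914, 2718, 6670 and 2963 were called in the same order. Depth limits the 11 untested tRNA genes and the counts of MT-TN, MT-TC and MT-TY without FPM.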
